A study of Mus musculus with 18 samples.

Results

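Ddc encodes aromatic L-amino acid decarboxylase, the enzyme that turns L-DOPA into dopamine and 5-hydroxytryptophan into serotonin, and Grb10 is the imprinted gene beside it on mouse chromosome 11. The 2 genes were followed here, with the 9 transcripts of each that the tables list, through 18 RNA-seq libraries of mouse heart ventricles. They are 2 of 28537 genes, and 18 of 88943 transcripts, in the tables. Ddc was selected on its measured levels, which were already known to be lower in double knockouts than in wild types and Irx3 knockouts, and Grb10 was chosen by its position next to Ddc. Ddc values in every comparison that involves those genotypes are therefore given as a description without a test, and a test is reported for Ddc only between Irx4 knockouts and double heterozygotes. Grb10 was tested in all comparisons.

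PolyA RNA of E14.5 ventricles (RNA integrity number above 8.5, libraries made with a directional kit) was compared between wild types and mice lacking the Iroquois homeobox transcription factor genes Irx3, Irx4 or both, in a study of how the ventricle wall becomes compact. There were 3 libraries labelled WT, 3 labelled Irx3KO, 3 labelled Irx4KO, 3 labelled Irx3het_Irx4het (double heterozygotes) and 6 labelled Irx3KO_Irx4KO (double knockouts, DKO). The labels give no alleles, strain, parent of origin or embryo for any library, so each p-value reflects only how far these libraries scatter, and that scatter may be technical. No treatment and no other mutation is named for any group.

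Grb10 and Ddc are textbook cases of genomic imprinting, in which a gene is read from the copy of 1 parent only. Ddc can start at an upstream exon 1, used in most tissues and read from both copies, or at exon 1a, whose transcript is known from developing heart and is read from the paternal copy. Grb10 encodes an adaptor protein that binds the insulin and insulin-like growth factor receptors and restrains growth, and it is read from the maternal copy in most tissues and from the paternal copy, with another start, in neurons. The libraries here do not separate the parental copies, so all levels are sums over both.

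Both genes lie on the minus strand of chromosome 11, with 32363 bases between them. In GRCm38, Ddc-202, the transcript that begins at exon 1a, covers chr11:11814103-11890408, and Ddc-201, which begins at the upstream exon 1, covers chr11:11814101-11898044. Their first exons hold 71 and 37 bases, their starts lie 7636 bases apart, and their coding exons are identical, with 480 codons in each. The start at exon 1a thus changes the untranslated 5′ end and not the protein. Grb10-201 covers chr11:11930508-12037401 and codes for 596 codons. Grb10-203 starts 9430 bases downstream at another first exon, lacks 1 inner exon of 165 bases and codes for 541 codons.

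The sequences before the 4 starts are shown because the transcripts differ by where they start and because imprinted control often involves CpG-rich starts. The upstream Ddc window is that of the RefSeq start, which is the start of Ddc-210, a transcript not in the tables. It lies 7736 bases from exon 1a, further upstream than the start of Ddc-201. Each sequence is the 250 bases before a start, 5′ to 3′ on the minus strand, from RefSeq on GRCm38.p6, with every CG dinucleotide in capitals. The windows are chr11:11898145-11898394 before the upstream Ddc exon, chr11:11890409-11890658 before Ddc exon 1a, chr11:12037421-12037670 before the first Grb10 exon, and chr11:12027972-12028221 before the second Grb10 start.
Ddc upstream exon 1: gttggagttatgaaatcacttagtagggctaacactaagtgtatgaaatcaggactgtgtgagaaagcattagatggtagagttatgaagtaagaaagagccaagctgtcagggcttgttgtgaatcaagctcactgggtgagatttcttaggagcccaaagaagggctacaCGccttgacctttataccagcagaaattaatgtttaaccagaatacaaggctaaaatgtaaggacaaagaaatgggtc
Ddc exon 1a: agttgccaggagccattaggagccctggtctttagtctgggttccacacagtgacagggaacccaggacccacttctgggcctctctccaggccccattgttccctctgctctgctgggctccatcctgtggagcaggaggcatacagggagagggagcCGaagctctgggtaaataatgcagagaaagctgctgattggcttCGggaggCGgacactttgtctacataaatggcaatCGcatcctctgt
Grb10 first start: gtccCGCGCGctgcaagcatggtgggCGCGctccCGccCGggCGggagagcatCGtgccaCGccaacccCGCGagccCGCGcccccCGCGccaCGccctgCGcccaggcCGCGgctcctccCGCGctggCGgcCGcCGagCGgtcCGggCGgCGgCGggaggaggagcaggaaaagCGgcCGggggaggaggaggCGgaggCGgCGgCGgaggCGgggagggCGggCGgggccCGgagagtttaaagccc
Grb10 second start: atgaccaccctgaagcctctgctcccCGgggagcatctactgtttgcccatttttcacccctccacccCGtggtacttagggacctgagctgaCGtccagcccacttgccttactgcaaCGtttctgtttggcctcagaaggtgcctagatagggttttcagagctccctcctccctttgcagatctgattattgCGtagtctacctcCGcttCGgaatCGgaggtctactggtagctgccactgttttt

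The window before the first Grb10 start held 40 CG dinucleotides, against 8 before the second Grb10 start, 4 before Ddc exon 1a and 1 before the upstream Ddc exon. The median over 32851 promoter windows of the same length was 6, so the first Grb10 start lies in a CpG-dense stretch and both Ddc starts lie below the median. The Iroquois binding site ACANNTGT was searched on both strands, and no match was found in any of the 4 windows, while 6.3% of all windows held one. A TATAAA match was found only in the window of the upstream Ddc exon, on the opposite strand (12.4% of all windows hold one). The MEF2 pattern of CTA, any 4 bases and TAG was found only in the window of the second Grb10 start, 24 bases before it (3.2% of all windows). These letter matches are descriptions of the windows and say nothing of binding.

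Library totals ran from 26721576 to 45946741 estimated counts. Levels are in CPM, estimated counts scaled to a common library total, unless TPM is named, which also scales for transcript length. WT with DKO 5, 7 and 10 (set 1) stood apart from the other 12 libraries (set 2), a division absent from the labels. How far a gene lay above its average in a library was related to transcript length over 14509 genes, with Spearman's rho of -0.497 to -0.277 in set 1 and 0.05 to 0.461 in set 2. Within its group DKO 5 stood apart over all genes, with a chi-square per gene of 64.1 and 61.8 against DKO 7 and DKO 10, where the other pairs within a group gave 6.33 to 27.9. Genotypes were compared only inside a set, which gives 7 comparisons and leaves WT with DKO of set 1 as its only partner. Irx3 lay at 22.2 to 26.4 CPM in Irx4KO, 22.1 to 28.5 in WT, 12.8 to 13.3 in double heterozygotes, 2.58 to 3.11 in Irx3KO and 3.18 to 4.33 in DKO, which is the order its labels give. Irx4 counts went the other way, at 78.8 to 126 CPM in WT, 135 to 158 in Irx3KO, 176 to 191 in double heterozygotes, 216 to 239 in libraries labelled Irx4KO and 218 to 282 in libraries labelled DKO, so they do not check the Irx4 labels. Summed cardiomyocyte markers (Tnnt2, Actc1, Ttn, Ryr2, Nkx2-5, Myl3) lay between 15426 and 19084 CPM, with WT at 15489 to 16761 and DKO of set 1 at 17579 to 19084.

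Ddc was high in the libraries whose labels name no Irx4 mutation, intermediate in double heterozygotes and low in libraries labelled Irx4KO or DKO. It was at 158, 139 and 97.6 CPM in WT 1, 2 and 3 and at 77.3, 37.7 and 49.1 CPM in DKO 5, 7 and 10 of set 1. In set 2 it was at 134, 121 and 170 CPM in Irx3KO 1, 2 and 4 and at 59.1, 72.4 and 74.3 CPM in double heterozygotes 2, 3 and 4. The lowest levels of set 2 were 51.4, 36.1 and 48.7 CPM in Irx4KO 2, 3 and 4 and 35.5, 50.1 and 46.9 CPM in DKO 2, 3 and 4. Every WT library lay above every DKO library of set 1. In set 2, every Irx3KO library lay above every double heterozygote, and each of those above every Irx4KO and DKO library. That full order held for 25 of the 16600 genes tested (0.151%), and the opposite order for 19 (0.114%). Since Ddc was picked with such values known, nothing is read from these shares. Irx4KO and DKO of set 2 overlapped.

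**Figure D1:**
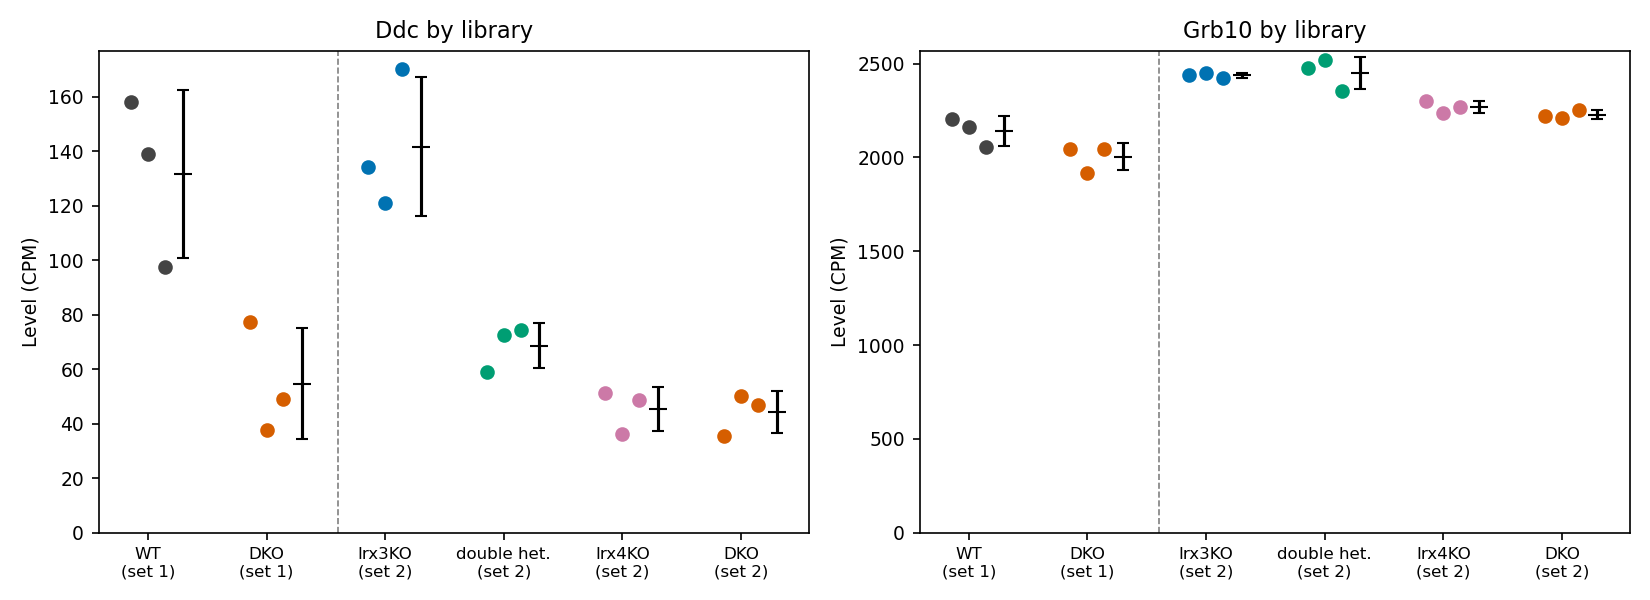
Level of Ddc (left) and Grb10 (right) in CPM on linear axes from 0, 1 point per library, with mean ± SD (n = 3) beside each group; the dashed line separates set 1 from set 2. Ddc means run from 44.1 CPM in DKO of set 2 to 142 CPM in Irx3KO, and Grb10 means from 2002 CPM in DKO of set 1 to 2450 CPM in double heterozygotes.

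The Ddc mean was 131 ± 30.6 CPM in WT and 54.7 ± 20.4 in DKO of set 1 (SD, n = 3 each), a log2 fold change of -1.26 ± 0.25 (SE), or 2.4-fold lower in DKO. These 2 groups did not overlap, which was so for 15.0% of all genes in this comparison. DKO 5 was the highest DKO library, and without it the log2 fold change was -1.59. Against Irx3KO (142 ± 25.7 CPM), Ddc in DKO of set 2 (44.1 ± 7.66 CPM) was 3.21-fold lower, a log2 fold change of -1.68 ± 0.26. Those groups did not overlap, as for 17.4% of all genes. Both differences had been known when Ddc was picked, so their size beside the spread between libraries is a description only.

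DKO libraries of set 2 held about as much Ddc as Irx4KO libraries. Irx4KO had a mean of 45.4 ± 8.17 CPM (n = 3), the log2 difference of DKO from it was -0.04 ± 0.26, and the groups overlapped, whereas those of 14.9% of genes did not. Irx3KO stood 3.12-fold above Irx4KO, a log2 fold change of 1.64 ± 0.26 without overlap (22.7% of all genes did not overlap). The labels of these 2 genotypes each name 1 homozygous mutation, and Ddc lay at opposite ends of its range in them.

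Double heterozygotes had a Ddc mean of 68.6 ± 8.3 CPM (n = 3). Irx3KO was 2.07-fold higher, a log2 fold change of 1.05 ± 0.25 without overlap (11.6% of all genes). DKO of set 2 was 1.55-fold lower, a log2 fold change of -0.64 ± 0.26, also without overlap (16.0% of all genes). In these libraries the double heterozygotes lay between the high and the low groups of set 2. Irx4KO was 1.51-fold lower than they were, a log2 fold change of -0.59 ± 0.26, and all 3 Irx4KO libraries lay below all 3 double heterozygotes, as groups of 14.1% of genes did not overlap here. In the only comparison in which Ddc was tested, this difference did not pass edgeR's quasi-likelihood test after Benjamini-Hochberg adjustment (adjusted p = 0.86, unadjusted 0.036). The test called 2 of 16600 genes (0.012%) in that comparison.

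Grb10 differed far less between genotypes and varied far less between libraries. It was at 2205, 2163 and 2054 CPM in WT 1, 2 and 3 and at 2046, 1919 and 2042 CPM in DKO 5, 7 and 10. In set 2 it was at 2438, 2451 and 2423 CPM in Irx3KO 1, 2 and 4 and at 2478, 2520 and 2353 CPM in double heterozygotes 2, 3 and 4. It was at 2298, 2236 and 2269 CPM in Irx4KO 2, 3 and 4 and at 2222, 2208 and 2252 CPM in DKO 2, 3 and 4. The 6 libraries of set 2 labelled with a homozygous Irx4 mutation all lay below the 6 others of that set, and the DKO libraries of set 1 lay just below WT. Grb10 thus stood in the same order as Ddc by Irx4 label, over a much narrower range and with Irx3KO and double heterozygotes overlapping. The share of all genes that split in this way was not computed, so nothing is read from the split.

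No Grb10 difference passed the edgeR quasi-likelihood test after Benjamini-Hochberg adjustment (n = 3 per group, SE 0.049 on the log2 scale in each comparison). In set 1, DKO was lower than WT by a log2 fold change of -0.10 (adjusted p = 0.40), where 1.44% of all genes were called, and without DKO 5 by -0.11 (adjusted p = 0.21). DKO of set 2 differed from Irx3KO by -0.13 (adjusted p = 0.44, 0.38% of genes called) and from double heterozygotes by -0.14 (adjusted p = 0.37, 0.0904% called). DKO differed from Irx4KO by -0.03 with overlap (adjusted p = 0.99, 0.0241% called). Before adjustment the edgeR p was 0.017 against Irx3KO and 0.012 against double heterozygotes, and DESeq2 called both (adjusted p = 0.036 and 0.022), so the small difference of DKO from these 2 groups depends on the tool.

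Without DKO libraries, the Grb10 log2 fold change was 0.10 for Irx3KO against Irx4KO (adjusted p = 0.57, 0.289% of genes called) and -0.11 for Irx4KO against double heterozygotes (adjusted p = 0.86). It was -0.01 for Irx3KO against double heterozygotes (adjusted p = 1.0, 0.00602% of genes called), in overlapping groups. The groups did not overlap in 5 of the 7 comparisons for Grb10, in which the same held for 14.1% to 22.7% of all genes, and the difference between DKO and double heterozygotes, the largest fitted in the 7, was 1.1-fold. A miss of the threshold does not show that Grb10 levels were equal.

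**Figure D2:**
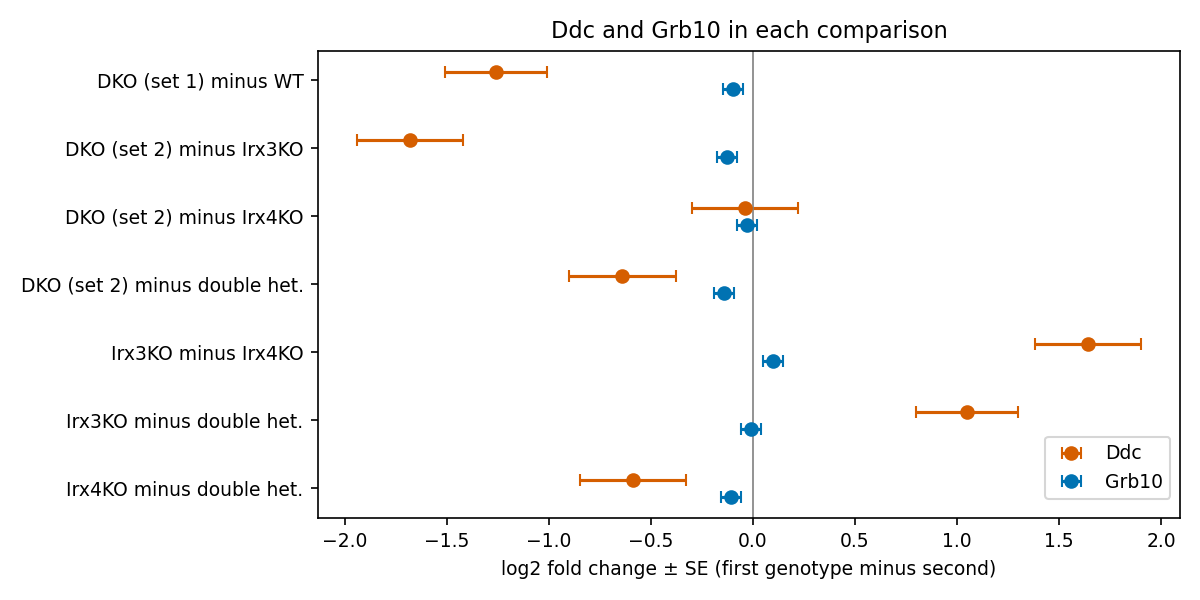
Fitted log2 fold change ± SE of Ddc (orange) and Grb10 (blue) in the 7 comparisons inside a set, first genotype minus second, with 3 libraries in each group. Ddc ranges from -1.68 to 1.64, and Grb10 stays between -0.14 and 0.10.

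Per unit of transcript length, Grb10 was the more abundant gene in all libraries. By mean TPM in WT, Grb10 ranked 195 and Ddc 1092 among 16600 genes tested. The ratio of TPM, Grb10 over Ddc, was 4.55 to 6.49 in WT and 4.67 to 6.45 in Irx3KO. It was 9.81 to 13.0 in double heterozygotes, 13.1 to 19.4 in Irx4KO, 13.2 to 19.3 in DKO of set 2 and 8.07 to 15.2 in DKO of set 1. The ratio moved with Ddc, since Grb10 TPM ran only from 486 to 753 over the 18 libraries while Ddc TPM ran from 31.7 to 149.

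The 2 genes also differed in how tightly the libraries of a group clustered. The SD of log2 CPM within groups was 0.33 for Ddc and 0.038 for Grb10, against a median of 0.116 over 11249 genes with a mean of at least 5 CPM. Of those genes, 3.97% varied as much as Ddc or more, and 0.533% as little as Grb10 or less. Ddc held 1293 to 6747 estimated counts per library, where counting error alone at the lowest count is 2.8%, so the spread between libraries of 1 genotype was well above counting error. In 3 libraries, Y-linked genes gave almost no RNA, namely WT 3, DKO 4 and double heterozygote 2. They held at most 1.43 CPM there, against at least 98.2 in the others, here without TMM scaling. Ddc was lowest of its group in WT 3 and in double heterozygote 2 but not in DKO 4, and any part of this in the results was not tested.

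Most Ddc RNA was assigned to exon 1a. Transcripts with that start (Ddc-202, Ddc-204, Ddc-208 and Ddc-209) held 90.7% to 91.7% of Ddc counts in WT, 90.4% to 91.0% in Irx3KO and 83.1% to 91.6% in double heterozygotes. They held 77.5% to 83.8% in Irx4KO, 78.3% to 87.2% in DKO of set 2 and 75.2% to 89.7% in DKO of set 1. In set 1 the exon 1a share was lower in every DKO library than in any WT library. In set 2 it was lower in every Irx4KO and DKO library than in any Irx3KO library, and double heterozygotes spanned both ranges. The share of all genes with such a separation was not computed. As shares of TPM the group means were lower by several points, in the same order inside each set. They were 87.4% in WT and 75.6% in DKO of set 1. In set 2 they were 86.4% in Irx3KO, 81.3% in double heterozygotes, 75.9% in DKO and 75.0% in Irx4KO.

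**Figure D3:**
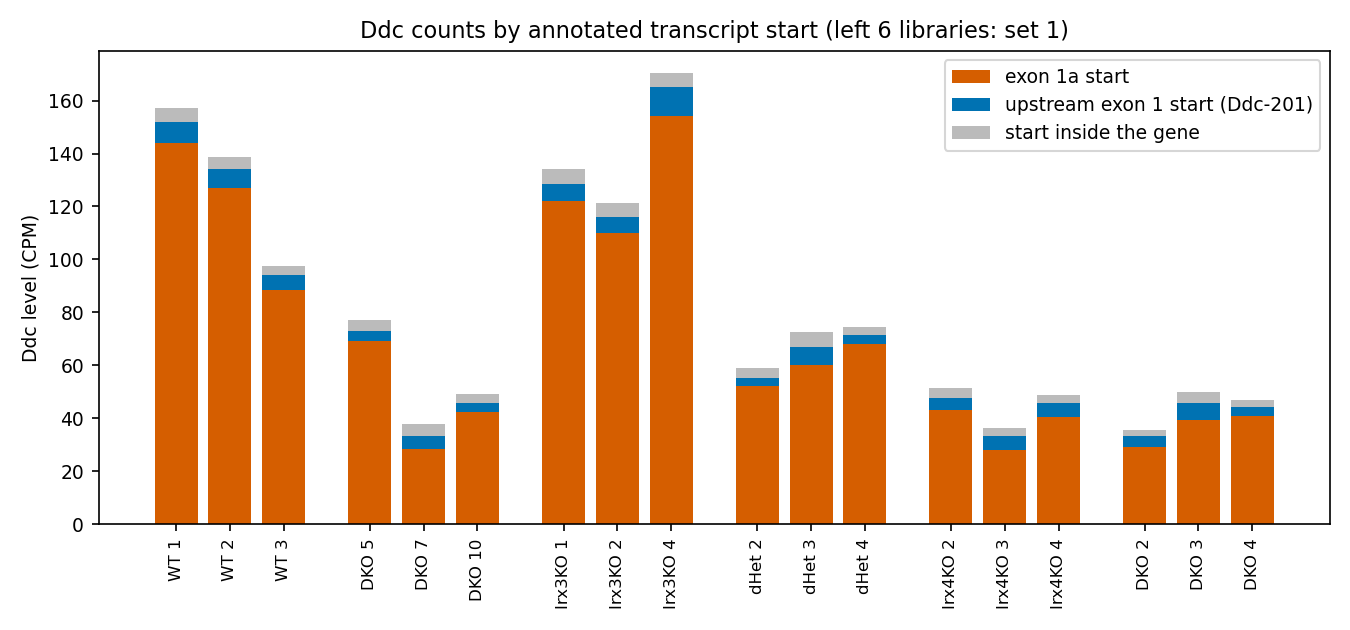
Ddc level in each of the 18 libraries (CPM, linear axis from 0), stacked by the annotated start of the transcripts the counts were assigned to. Exon 1a starts make up 75.2% to 91.7% of each bar, and the height of the bars follows that part.

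Ddc-202 by itself was at 137, 123 and 80.7 CPM in WT 1, 2 and 3 and at 64.0, 26.8 and 40.4 CPM in DKO 5, 7 and 10. In set 2, Ddc-202 was at 112, 104 and 147 CPM in Irx3KO 1, 2 and 4, at 49.0, 54.3 and 62.8 in double heterozygotes 2, 3 and 4, at 38.6, 25.9 and 37.8 in Irx4KO 2, 3 and 4, and at 26.4, 35.3 and 37.7 in DKO 2, 3 and 4. Inside each set it repeated the order of the whole gene, with no overlap except between Irx4KO and DKO. Ddc-202 holds most of the Ddc counts, so this is not a second observation. The share of all transcripts that separate in this way was not computed. Its log2 fold change was -1.34 ± 0.29 for DKO against WT and -1.86 ± 0.29 for DKO against Irx3KO, given without a test. For Irx4KO against double heterozygotes it was -0.70 ± 0.29 (adjusted p = 0.88 by edgeR over 49422 transcripts, of which 0.0101% were called).

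Ddc-201, with the upstream exon 1, was a minor form whose level moved less. It was at 7.95, 7.14 and 5.59 CPM in WT 1, 2 and 3 and at 3.58, 5.06 and 3.46 CPM in DKO 5, 7 and 10. In set 2, Ddc-201 was at 6.46, 5.97 and 11.3 CPM in Irx3KO, 3.02, 6.67 and 3.23 in double heterozygotes, 4.69, 5.16 and 5.32 in Irx4KO and 4.12, 6.43 and 3.3 in DKO, in the order of their replicate numbers. WT and DKO of set 1 did not overlap, nor did Irx3KO and Irx4KO. DKO of set 2 overlapped with Irx3KO and Irx4KO, and double heterozygotes overlapped with the Irx3KO, Irx4KO and DKO groups. The share of all transcripts without overlap was not computed. The log2 fold change of Ddc-201 was -0.74 ± 0.33 for DKO against WT and -0.78 ± 0.33 for DKO against Irx3KO, without a test. Against double heterozygotes it was 0.23 ± 0.33 in Irx4KO (edgeR adjusted p = 1.0), opposite in sign to that of Ddc-202. Whether the 2 starts differed in response was not tested.

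Of the other Ddc forms, Ddc-206, a short form that starts inside the gene, held 2.31% to 9.7% of Ddc counts and 1.85 to 5.18 CPM. Ddc-208 and Ddc-209, partial forms from exon 1a, held at most 6.26% and 5.27%. Ddc-209 was listed at 0 in at least 1 library of Irx4KO and of DKO, so its values scatter from 0 to 6.98 CPM. Counts were split between overlapping transcripts by kallisto's estimate, whose uncertainty is not in these values. The antisense gene 1700042O10Rik overlaps Ddc and held only 0.0801 to 0.531 CPM. The library kit keeps strand, but the strand setting of the counting is not given in the sources used here.

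Nearly all Grb10 RNA was assigned to Grb10-201, which held 94.9% to 96.3% of Grb10 counts in set 2 and 81.2% to 95.7% in set 1. The remainder was mostly Grb10-203. Grb10-203 was at 119, 144 and 73.5 CPM in WT 1, 2 and 3 and at 375, 185 and 78.7 CPM in DKO 5, 7 and 10. In all 12 libraries of set 2 it lay between 59.9 and 89.9 CPM, DKO included. DKO 5 and DKO 7 thus stood above all other libraries for Grb10-203, while DKO 10 lay below WT 1 and WT 2.

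In DKO 5 and DKO 7, Grb10-203 made up 18.3% and 9.66% of Grb10 counts, and in all other libraries between 2.66% and 6.65%. Grb10-201 was correspondingly low there, at 1661 and 1720 CPM against 1966 to 2070 CPM in WT, while the sums over the gene were 2046 and 1919 CPM. Grb10-201 was lower in DKO than in WT of set 1 by a log2 fold change of -0.15 ± 0.04 and did not pass (edgeR adjusted p = 0.27). The log2 fold change of Grb10-203 for DKO against WT in set 1 was 0.97 ± 0.39 and did not pass (edgeR adjusted p = 0.49, n = 3 each, 0.14% of transcripts called). The Grb10-203 groups overlapped. In set 2, the log2 fold change of DKO was 0.01 ± 0.39 against Irx3KO, -0.16 ± 0.39 against Irx4KO and -0.17 ± 0.39 against double heterozygotes. Grb10-203 differs from Grb10-201 both by its first exon and by the missing inner exon, and the estimated counts do not say which of these reads chose the form.

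**Figure D4:**
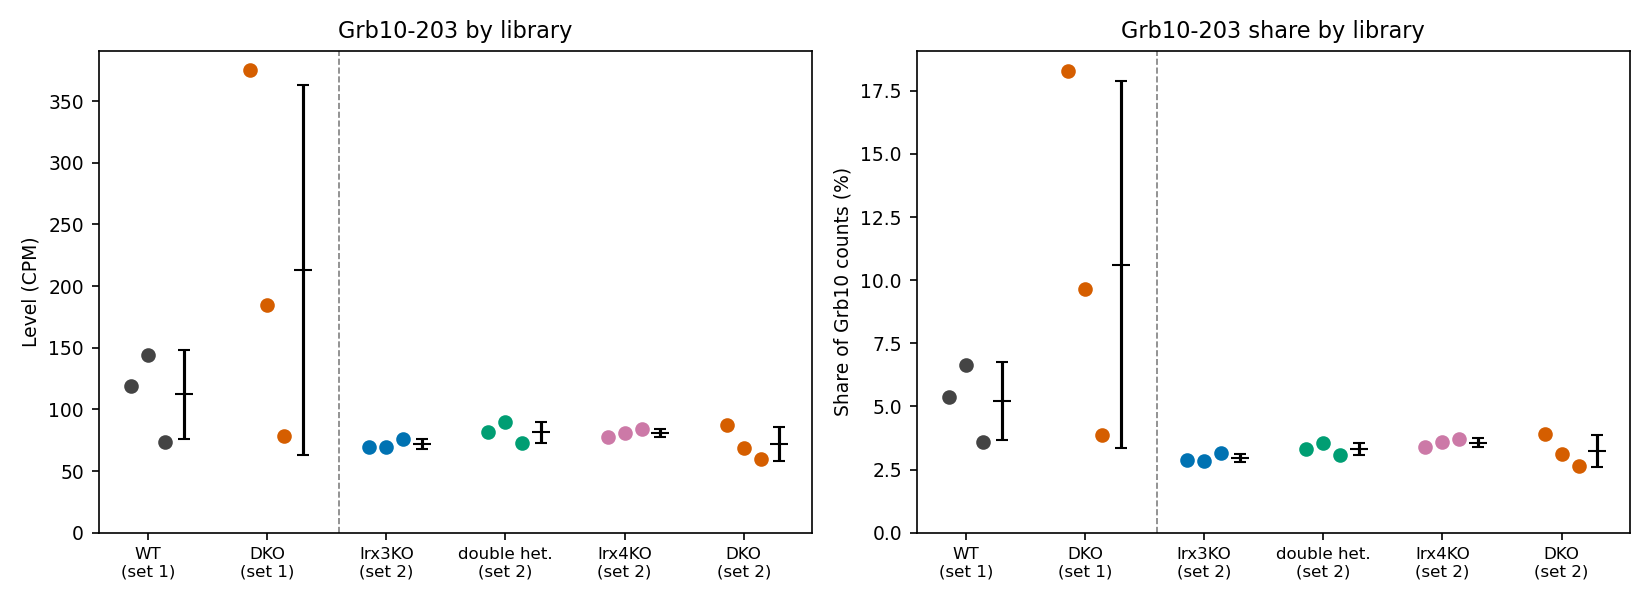
Level of Grb10-203 in CPM (left) and its share of Grb10 counts in percent (right), 1 point per library, with mean ± SD (n = 3) beside each group; axes start at 0 and the dashed line separates the sets. DKO 5 at 375 CPM and DKO 7 at 185 CPM stand above the other 16 libraries.

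Of 12 measured genes of aromatic amine synthesis, none passed the test in any of the 7 comparisons, and in DKO against WT their median log2 fold change was 0.05 against 0.01 over all genes tested. Th, tyrosine hydroxylase, the first step of dopamine synthesis, held 0.0507 to 0.621 CPM, and Tph1, which begins serotonin synthesis outside the brain, 0 to 0.363 CPM. Dbh and Pnmt, which turn dopamine into noradrenaline and noradrenaline into adrenaline, held 0.304 to 0.978 and 0.478 to 1.96 CPM. Gch1 and Qdpr, which make and recycle the biopterin cofactor of these hydroxylases, held 5.36 to 8.7 and 38.4 to 53.4 CPM. Th, Tph1, Dbh and Pnmt thus stayed below 2 CPM in all libraries, while Ddc held at least 35.5 CPM. By p in DKO against WT, Th (log2 fold change 1.6), Qdpr (0.17), Pnmt (0.57) and Gch1 (0.20) came first and did not pass (edgeR adjusted p = 0.21 to 0.54).

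Among 10 measured genes of amine storage, transport and breakdown, 1 passed a test and it was lower, in DKO against WT, where 1.44% of all genes were called. Maob, monoamine oxidase B, which degrades dopamine and trace amines, was at 12.6, 13.6 and 15.3 CPM in WT and at 9.4, 9.85 and 9.94 CPM in DKO of set 1, from lowest to highest. Its log2 fold change was -0.51 ± 0.10 (edgeR adjusted p = 0.015, n = 3 each), and it passed in none of the other comparisons. Without WT 1 its adjusted p was 0.084. Among the genes next by p, Maoa, Slc6a4 and Slc22a3 had log2 fold changes of -0.12, -0.39 and -0.39 and did not pass. Their list had a median of -0.14. Slc18a2, the vesicular monoamine transporter, named here after its values were seen, had means of 11 CPM in Irx3KO, 10.6 in double heterozygotes, 7.19 in Irx4KO and 7.88 in DKO of set 2. Its log2 fold change was 0.61 ± 0.25 for Irx3KO against Irx4KO and -0.57 ± 0.25 for Irx4KO against double heterozygotes, and neither passed (edgeR adjusted p = 0.48 and 0.86). Of 19 listed amine receptor genes, 10 had enough counts, and none of these passed in any comparison. The serotonin receptors Htr7 and Htr1b had log2 fold changes of 1.02 and 0.51 in DKO against WT, and the adrenergic receptors Adra2c and Adra1a -0.91 and -0.51. Adrb1, the main adrenergic receptor of heart muscle, lay at 7.24 to 12.8 CPM, and the dopamine receptors Drd1 and Drd2 at 0.197 to 0.921 CPM and at 0.

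Of the receptors and ligands that Grb10 acts on, none of 13 passed in any comparison. Insr, the insulin receptor, had a log2 fold change of -0.14 and Igf2, an imprinted growth factor of the embryo, one of 0.17 in DKO against WT (edgeR adjusted p = 0.31 and 0.26, n = 3 each). Kdr and Egfr, at -0.19 and -0.27, did not pass either, and the list's median was -0.06. Among 16 partners and growth signalling genes, Grb14, the closest relative of Grb10 and likewise an adaptor of the insulin receptor, was the 1 that passed, and it was higher where the Irx4 label was homozygous. Akt2, Lrp6, Akt1 and Mtor came next in DKO against WT with log2 fold changes of 0.27, 0.15, 0.10 and 0.10 and did not pass (edgeR adjusted p = 0.055 to 0.48). Grb14 was at 39.0 to 44.9 CPM in WT and 50.4 to 54.7 in DKO of set 1, and in set 2 at 40.6 to 41.9 in Irx3KO, 41.0 to 46.7 in double heterozygotes, 53.7 to 56.7 in DKO and 55.4 to 59.4 in Irx4KO. None of those Irx4-mutant ranges overlapped with the others, in comparisons where 14.1% to 22.7% of all genes did not overlap. Against double heterozygotes, Grb14 passed neither in DKO nor in Irx4KO.

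Grb14 rose in DKO against WT by a log2 fold change of 0.29 ± 0.06 (edgeR adjusted p = 0.029) and against Irx3KO by 0.42 ± 0.06 (adjusted p = 0.008). It was lower in Irx3KO than in Irx4KO by a log2 fold change of -0.50 ± 0.06 (adjusted p = 0.0019, n = 3 each throughout). With the replicate number as a block, the values inside set 2 did not pass (adjusted p = 0.086 and 0.053), and the call against WT was lost without DKO 7 or without any 1 of the 3 WT libraries, and the call against Irx3KO without Irx3KO 1. Grb10 itself lay in the opposite direction in the same comparisons and did not pass.

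Of 17 other imprinted genes measured, 3 passed in DKO against WT, where 1.44% of all genes did. Peg3, a paternally read zinc finger gene, rose by 0.42 ± 0.08 on the log2 scale (edgeR adjusted p = 0.018), with DKO of set 1 at 584 to 741 CPM and WT at 435 to 505. Sgce, epsilon-sarcoglycan, rose by 0.25 ± 0.05 (adjusted p = 0.02), and Dlk1, a paternally read Notch-like membrane protein, fell, with a log2 fold change of -0.57 ± 0.14 (adjusted p = 0.049). Sgce also rose in DKO against Irx3KO, by 0.28 ± 0.05 (adjusted p = 0.025, n = 3 each). The Peg3 call was lost without WT 3 (adjusted p = 0.092), the Sgce call against WT without any 1 of the WT libraries, the Dlk1 call in 13 of 18 fits that left out 1 library, and the Sgce call against Irx3KO in 7 of 18 and with the replicate block (adjusted p = 0.15). In a fit of the 2 groups by themselves, none of Maob, Grb14, Peg3, Sgce and Dlk1 passed in DKO against WT (edgeR adjusted p = 0.23 to 0.43). Without DKO 5, Maob, Grb14, Peg3 and Sgce passed and Dlk1 did not (edgeR adjusted p = 0.062). Ndn, Commd1, Impact and Gnas came next in DKO against WT, at 0.19, 0.16, 0.17 and 0.09, and did not pass. No imprinted gene of this list passed in the other 5 comparisons, and the median of the list was 0.08 in DKO against WT. H19 and Meg3 were not matched.

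Of 6 other neighbours on chromosome 11, none passed in any comparison by edgeR. Their median log2 fold change was -0.05 in DKO against WT, 0.03, 0.09 and -0.30 in DKO of set 2 against Irx3KO, Irx4KO and double heterozygotes, 0.30 and -0.04 in Irx3KO against Irx4KO and double heterozygotes, and -0.31 in Irx4KO against double heterozygotes. The median over all genes lay between 0.0 and 0.01. Fignl1, a DNA repair gene next to Ddc, was at 85.1 to 97.4 CPM in WT, 71.4 to 104 in DKO of set 1, 87.3 to 90.2 in Irx3KO, 75.2 to 85.1 in Irx4KO, 86.0 to 105 in double heterozygotes and 83.5 to 99.4 in DKO of set 2. Cobl, an actin nucleator beyond Grb10, lay between 12.1 and 17.1 CPM and Zpbp between 1.37 and 2.72 CPM over all libraries. Ikzf1 (0.202 to 1.64 CPM), Vwc2 and Spata48 were at the floor. Irx4KO lay below Irx3KO and double heterozygotes without overlap for Fignl1, in comparisons where 22.7% and 14.1% of all genes did not overlap. Fignl1 in DKO of set 2 overlapped with Irx3KO and double heterozygotes. Cobl in Irx4KO (16.3 to 17.1 CPM) lay above double heterozygotes (12.1 to 15.7), again where 14.1% of all genes did not overlap.

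Markers of other cells that could carry Ddc were measured beside it. In bulk tissue, fewer cells of a type and less RNA per cell cannot be told apart. The 12 sympathetic, chromaffin and neural crest markers summed to 29.3 to 44.3 CPM, with Hand1 at 9.97 to 21.9 CPM, Sox10 at most 0.156 CPM and Chga at most 0.0956 CPM. The sum was 37.3 to 44.3 CPM in WT against 29.3 to 40.7 in DKO of set 1, and 36.8 to 40 in Irx3KO against 33.5 to 37.3 over the other groups of set 2. Of 6 liver and kidney markers, Umod and Slc34a1 were listed at 0 in all libraries and the sum was 3.56 to 12.7 CPM, mostly Lrp2. Markers of tubule and liver other than Lrp2 were thus at or near 0. The liver and kidney sum was 6.52 to 7.39 CPM in WT against 3.56 to 5.16 in DKO of set 1, without overlap. In set 2 it was 10.5 to 12.4 CPM in Irx3KO, 8.97 to 12.3 in double heterozygotes, 10.6 to 12.7 in Irx4KO and 7.41 to 11.1 in DKO. Its part in the Ddc levels was not tested.

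Trabecular markers (Nppa, Nppb, Bmp10, Gja5, Cpne5, Cited1 and Sema3a) summed to 1438 to 1858 CPM in WT and 1695 to 2365 in DKO of set 1. In set 2 they summed to 1299 to 1334 CPM in Irx3KO, 999 to 1549 in double heterozygotes, 1174 to 1290 in Irx4KO and 1301 to 1773 in DKO. The trabecular sum did not follow the order of Ddc. Compact wall markers (Hey2, Mycn, Tbx20, Cited2, Nkd2) summed to 541 to 595 CPM in WT, 501 to 667 in DKO of set 1 and 780 to 967 over set 2. The 7 atrial markers summed to 1651 to 2154 CPM in WT against 2644 to 2892 for DKO of set 1, without overlap. In set 2 the atrial sum was 1967 to 2244 CPM in DKO, 1798 to 1913 in Irx4KO, 1714 to 1730 in Irx3KO and 1492 to 1721 in double heterozygotes. Of these groups only Irx3KO and double heterozygotes overlapped. Inside each set, atrial markers were thus higher in the groups labelled with a homozygous Irx4 mutation, where Ddc was low. Irx4KO held less of them than DKO of set 2, with Ddc about as low. The share of all genes with such a split was not computed, and the part of atrial markers in the result was not tested.

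Blood and macrophage markers summed to 2306 to 4196 CPM in WT, 1674 to 3084 in DKO of set 1, 3106 to 4252 in Irx3KO, 2498 to 3243 in double heterozygotes, 2373 to 5121 in Irx4KO and 2107 to 3103 in DKO of set 2. Endothelial markers lay between 918 and 1128 CPM and epicardial and fibroblast markers between 2688 and 4938 CPM over all libraries. None of these 3 sums ran in the order of Ddc over the groups of set 2. Lyz2, of the blood and macrophage list, had group means of only 8.58 to 39.6 CPM, so that sum says little of it.

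Genes with a pattern like that of Ddc were found by Pearson's r of log2 CPM over the 18 libraries, each gene centred on the mean of its set, among 11249 genes. The points share library, depth and genotype, so r describes a shared pattern and nothing more. The 5 highest were Fam69b (0.897), Gtsf1 (0.896), Lyz2 (0.894), Nr3c2 (0.893) and Kalrn (0.887). Kalrn had the highest r of all genes over set 2 by itself (0.938). Kalrn was at 41.3 to 54.2 CPM in WT, 25.2 to 31.6 in DKO of set 1, 54.3 to 60.7 in Irx3KO, 41.1 to 45.6 in double heterozygotes, 32.1 to 43.7 in Irx4KO and 31.0 to 37.0 in DKO of set 2. Nr3c2, the mineralocorticoid receptor, had means of 14 CPM in Irx3KO, 10.9 in double heterozygotes, 8.82 in Irx4KO and 8.21 in DKO of set 2. Lyz2, lysozyme of macrophages and a marker of the blood list, had means of 39.6 CPM in WT and 14.1 in DKO of set 1, and Lyz2 means in set 2 ran from 25 in Irx3KO to 8.58 in DKO, so a marker of another cell type moved with Ddc, and its part was not tested.

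The gene most unlike Ddc was Zim1, an imprinted zinc finger gene (r = -0.924 over 18 libraries, -0.966 over set 2). Zim1 was at 42.7 to 50 CPM in WT and 49.9 to 103 in DKO of set 1. In set 2, Zim1 was at 75.9 to 84.2 CPM in Irx3KO, 95.0 to 116 in double heterozygotes, 139 to 148 in Irx4KO and 135 to 146 in DKO, the mirror image of the Ddc order. Zim1 was named by its r and gets no test here. Pirt (-0.91) and Sel1l3 (-0.909) came next. Irx4 counts stood at r = -0.784 with Ddc (-0.913 over set 2, -0.844 over set 1). Irx3 counts stood at -0.034 over the 18 libraries, with opposite signs in the sets (-0.502 over set 2, 0.805 over set 1).

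**Figure D5:**
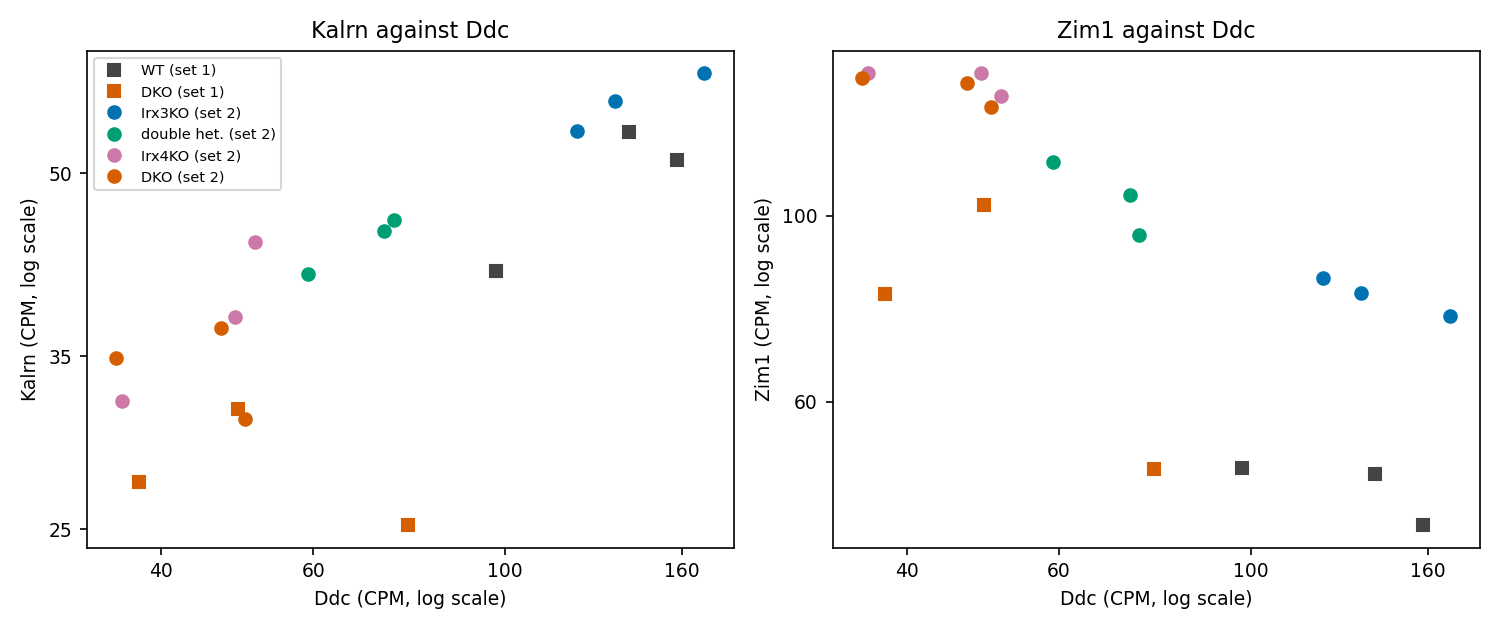
Kalrn (left) and Zim1 (right) against Ddc, in CPM on log axes, 1 point per library, with squares for set 1 and circles for set 2. Over 18 libraries centred on set means, r is 0.887 for Kalrn and -0.924 for Zim1, and the WT points of Zim1 lie below all points of set 2.

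Grb10 and Ddc had r = 0.795 over the 18 libraries, and 0.725 over set 2, where Grb10 ranked 213 of 11249 genes in likeness to Ddc. The genes most like Grb10 were Gja1 (0.903), Lama4 (0.881), Nup210 (0.878), Kcnk3 (0.876) and Fhod3 (0.874). Gja1, connexin 43, the main gap junction protein of the ventricle wall, was at 475 to 593 CPM in WT, 340 to 407 in DKO of set 1, 505 to 583 in Irx3KO, 477 to 511 in double heterozygotes, 312 to 329 in Irx4KO and 304 to 343 in DKO of set 2. Gja1 was thus split by Irx4 label as Grb10 was, over a wider range. Since Gja1 was picked by its r with Grb10, nothing is read from that split. The most unlike were Tagln2 (-0.884), Lgals1 (-0.879) and S100a10 (-0.87), with Lgals1 means of 133 CPM in Irx3KO and 143 in double heterozygotes against 177 in Irx4KO and 176 in DKO of set 2.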

How the data were processed

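The authors deposited, for each of the 18 libraries, estimated counts and TPM per transcript, which per the file headers are kallisto tables. Per the submitters' processing notes the tool was kallisto 0.42.2 and the build mm9. The sources used here give neither transcript release nor strand setting. TPM values, as deposited by the authors, were used for ratios, ranks and an alternative. Identifiers tied 78002 of 88943 transcripts (87.7%) to genes of GENCODE M21 (GRCm38), from which all coordinates were taken. Estimated counts were summed per gene and rounded. edgeR 4.0.16 (R 4.3.3) fitted 16600 genes with TMM, filterByExpr and 6 groups of 3 (genotype within set) by the robust quasi-likelihood test, adjusted by Benjamini-Hochberg over all genes at 0.05 (prior count 0.125 for fitted folds), and 49422 transcripts likewise. The common dispersion was 0.0207. The script was tested on simulated counts. Alternatives were RLE size factors, DESeq2 1.42.0, no filter, 1 CPM in 3 libraries, counts from TPM, only the groups compared, no sets, a replicate block and each library left out. Libraries totalled 26721576 to 45946741 estimated counts, and no pair within a group agreed within sampling noise (lowest chi-square per gene 6.33). The members, sets and lists were chosen with earlier results of these data known. Named are transcripts with at least 5% of a gene's counts in a library, list genes that were called or came next by p in DKO against WT, all neighbours, and the 5 most like and 3 most unlike genes. Some genes that this rule names are not reported here.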

Additional observations from a re-analysis of the deposited data

Results flagged for a closer look

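DKO was the only genotype with enough libraries (6) for a check of single libraries against the rest, and chance sets apart about 1 in 20 such groups. The check pooled DKO libraries of both sets. It was run on levels of both genes and of named transcripts, on transcript shares and on the ratio of the 2 genes. Chance can thus set a library apart in some of these measures. Ddc in DKO 5, at 77.3 CPM, stood further above the next DKO library than that check allows. Ddc-202 in the same library, at 64.0 CPM, did so too, and it holds most of the Ddc counts, so these are 1 observation and not 2. Both passed narrowly, with a gap of 0.651 of the range for Ddc and 0.628 for Ddc-202, against a limit of 0.625. DKO 5 belongs to set 1, and the DKO libraries of the 2 sets were otherwise interleaved for Ddc. DKO 5 was also the library with the highest Grb10-203 (375 CPM), which did not pass the same check. Over all genes it stood apart from DKO 7 and DKO 10 (chi-square per gene 64.1 and 61.8, against at most 27.9 for other pairs within a group), and its relation to transcript length was the most negative of all libraries (rho -0.497).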

How the results depend on the processing

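The numbers of genes called in the 7 comparisons, in the order DKO against WT, DKO against Irx3KO, Irx4KO and double heterozygotes, Irx3KO against Irx4KO and double heterozygotes, and Irx4KO against double heterozygotes, were 239, 63, 4, 15, 48, 1 and 2. With only the groups compared in the fit they were 16, 108, 7, 11, 541, 4 and 11, with genotype alone and no sets 105, 284, 12, 317, 23, 1 and 1, and by DESeq2 594, 201, 26, 184, 216, 12 and 32. Leaving out 1 library gave 67 (without WT 1) to 576 (without DKO 5), 15 (without DKO 4) to 143 (without DKO 5), 1 to 6, 4 to 102, 12 to 119, 1 to 2 and 0 to 6. The cause of these shifts was not tested. Grb10 was called by DESeq2 with log2 fold changes of -0.14 for DKO against Irx3KO and -0.15 against double heterozygotes. It changed sign only for Irx3KO against double heterozygotes, from -0.04 to 0.01 on leaving out 1 library. Ddc in DKO against WT ran from -1.59 (without DKO 5) to -1.05 (without DKO 7). With counts rebuilt from TPM, Grb10-201 gave 0.01 for Irx3KO and Grb10-203 gave 0.0 for Irx4KO against double heterozygotes.

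Over 15 pairs of equal replicate number in set 2, the correlation of deviations ran from -0.42 to 0.21 and exceeded 0.1 in 5. The pairs of replicate 3 gave 0.16 to 0.21. Pairs of unequal number were not taken as a baseline, so whether replicate numbers pair the libraries was not tested. With the replicate number as a block in set 2, the 6 counts were 38, 3, 34, 14, 2 and 2. No paired analysis was possible for DKO against WT because these libraries share no numbers. Counting error at the lowest count was 2.8% for Ddc and 0.41% for Grb10. The split of counts between transcripts carries an uncertainty that is not in the tables.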
